A study of Homo sapiens with 4 samples.

Results

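The genes described here are 8 nuclear genes whose products handle iron, porphyrins and iron-sulfur clusters in mitochondria: SLC25A37, SLC25A38, ABCB10, TSPO, ISCU, NFS1, GLRX5 and ISCA1. They are 8 of the 20149 protein-coding genes annotated on hg19, and share these functions. For each gene, the H3K27ac peaks that overlapped the gene body with 25 kb on each side (its window) were taken from 3 peak lists. H3K27ac, acetylation of lysine 27 of histone H3, marks active promoters and enhancers. It was profiled by ChIP-seq in K562 cells, an established leukaemia line of erythroid character that makes globins and heme. The 3 libraries came from K562 cells with a non-targeting control shRNA (shNT), with a first shRNA against TFAM (hairpin 1, TFAM-sh1) or with a second one (hairpin 2, TFAM-sh2). TFAM packages mitochondrial DNA and starts its transcription. All 3 groups share the cell line, its medium, the antibody and the carriage of an shRNA, and the sources used here do not say whether the cells were clones or pools. The stated purpose was to look genome-wide at histone hyperacetylation in erythroid cells that lack TFAM.

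Mitochondria take up iron through mitoferrins and use it in 2 ways, to complete heme and to build iron-sulfur clusters. In the heme branch, glycine enters the organelle for the first step of the pathway, porphyrin intermediates cross the mitochondrial membranes, and iron is inserted at the last step. In the iron-sulfur branch, a desulfurase provides sulfur, a scaffold holds the new cluster, and carrier proteins pass it on to enzymes of respiration and of the citric acid cycle. Red cell precursors depend on both branches, and inherited loss of SLC25A38 or GLRX5 is a known cause of sideroblastic anaemia, in which iron piles up in the mitochondria of these cells.

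Each condition had 1 library with 1 peak list, so no value below has a replicate, a spread or a p-value, and each comparison is between libraries. The control list held 23413 peaks, the hairpin 1 list 23819 and the hairpin 2 list 27007. The sources used here do not give the read depths. A peak's score percentile is its rank by the authors' score within its own list, from 0 for the lowest score to 100 for the highest. Values given in threes are in the order control, hairpin 1, hairpin 2. The absence of a peak does not show that a site was unmarked. Of 14 erythroid marker genes, 8 had a promoter peak in the control, 6 in hairpin 1 and 6 in hairpin 2, while GATA1, KLF1, NFE2, HBE1, HBG1 and HBG2 had none in any list. None of 3 hepatocyte markers had a promoter peak in any list, against 0, 1 and 1 of 4 fibroblast markers, 0, 2 and 0 of 6 lymphoid markers and 3 of 5 epithelial markers in each list, in the same order. The part of these marker genes in the results was not tested.

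Nearly all of the genes carried H3K27ac at their promoters, taken as the canonical start site with 1 kb on each side. A promoter peak was listed for 7 of the 8 genes in the control, 8 in hairpin 1 and 7 in hairpin 2, where 53.7%, 54.7% and 54.9% of all protein-coding genes had one. SLC25A37, SLC25A38, ABCB10, ISCU, NFS1 and ISCA1 had a promoter peak in every list, as did 50.3% of all genes. TSPO had one in both hairpin lists but not in the control, a class called gained that held 1.53% of all genes. GLRX5 had one in the control and in hairpin 1 but not in hairpin 2, as did 1.21% of all genes. The remaining classes, absent only from hairpin 1, in hairpin 1 alone and in hairpin 2 alone, held no member and 1.34%, 1.65% and 1.68% of all genes. No member was lost, that is, marked in the control alone, as 0.829% of all genes were.

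**Figure D1:**
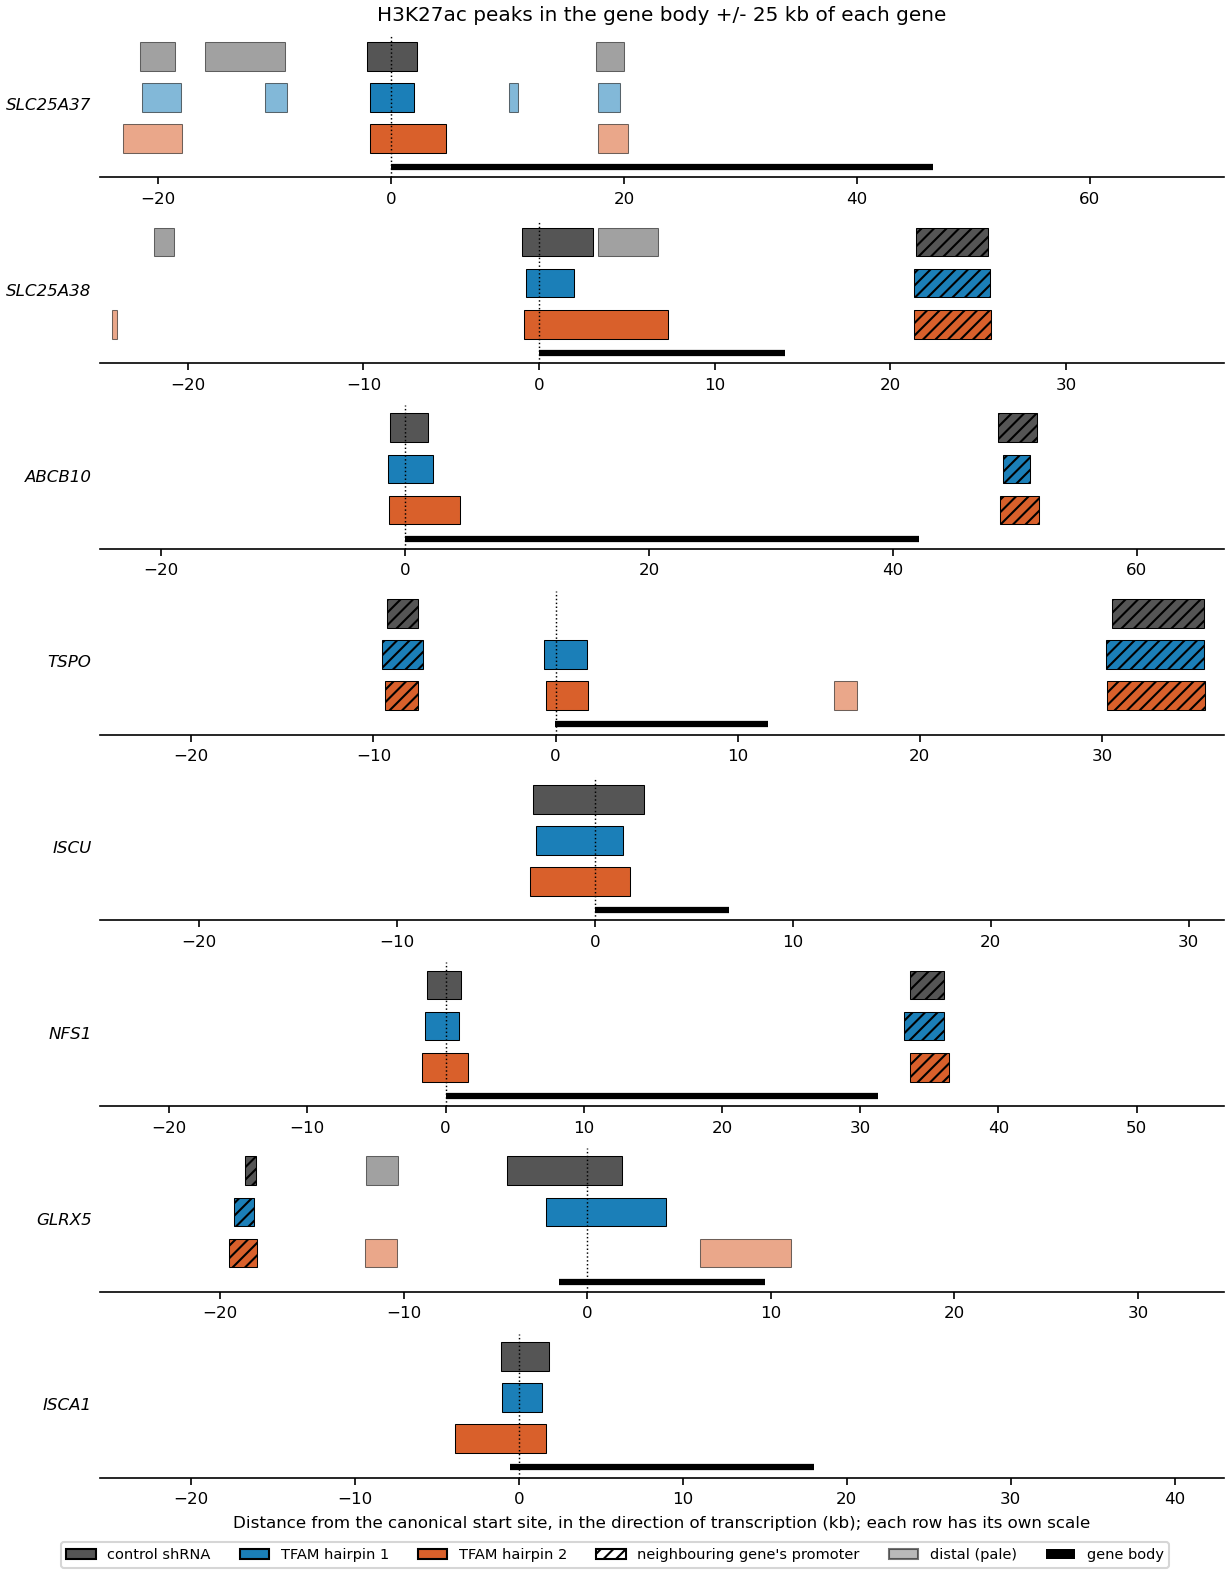
Peaks of the 3 lists in the window of each gene, drawn by distance from the canonical start site in kb, with the control list on top, hairpin 1 in the middle and hairpin 2 below; the black bar is the gene body, hatched boxes lie at a neighbouring gene's promoter and pale boxes are distal. The TSPO start site has peaks in both hairpin lists alone, and the GLRX5 start site has none in hairpin 2.

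SLC25A37 encodes mitoferrin-1, the iron importer of the inner mitochondrial membrane in red cell precursors. The gene is on the plus strand at chr8:23386469-23432976 and had the most distal regions of the 8, where distal means overlapping no protein-coding promoter. Its promoter peak measured 4285, 3762 and 6531 bp. The score percentiles were 65.1, 77.9 and 54.7, so hairpin 1 had the narrowest and highest-ranked of the 3 peaks and hairpin 2 the widest and lowest-ranked. The extra length in hairpin 2 lay inside the gene: the peak reached 4709 bp past the start site there, against 2250 bp in the control and 1971 bp in hairpin 1.

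Of the 4 distal regions of SLC25A37, 2 were marked in every list. The upstream one (chr8:23363446-23368554) overlapped a transcript annotated as a lncRNA and had peaks of 2930, 3347 and 5109 bp at percentiles 40.2, 38.1 and 57.3. The intronic one (chr8:23404086-23406781), which began 17617 bp past the start site, had peaks of 2352, 1837 and 2518 bp at percentiles 51.8, 46.6 and 53.3. The upstream interval was thus widest and highest-ranked in hairpin 2, while the intronic one was close in rank in all 3 lists. A further region (chr8:23370449-23377528) held a control peak of 6889 bp at percentile 7.02 and a hairpin 1 peak of 1888 bp at percentile 11.2, with none in hairpin 2. A 767 bp intronic peak at percentile 2.34 was listed in hairpin 1 alone. Both of the regions that were not in every list thus ranked near the bottom of the lists that held them.

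ABCB10 is an inner-membrane transporter that binds mitoferrin-1 and stabilises it. On the minus strand at chr1:229652329-229694454, its window held only one more region, the promoter of its neighbour NUP133. The ABCB10 promoter peak measured 3122, 3689 and 5800 bp, at percentiles 80.1, 85.5 and 66.7. As at SLC25A37, the hairpin 2 peak was the widest and the lowest-ranked, and its extra length lay inside the gene. It reached 4486 bp past the start site there, against 1892 bp in the control and 2310 bp in hairpin 1. Its upstream edge moved far less, at 1229, 1378 and 1313 bp before the start site. No distal peak was listed in this window in any library.

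**Figure D2:**
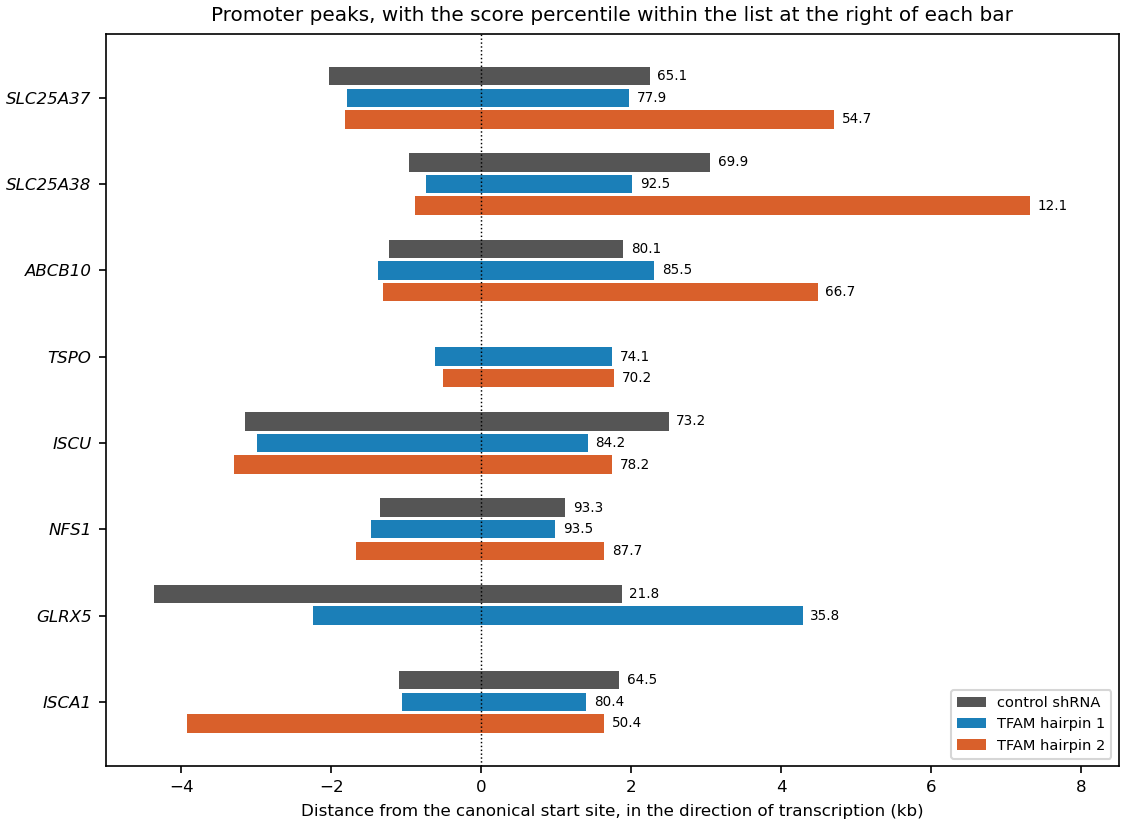
Extent of each promoter peak around the canonical start site in kb, with positive distances inside the gene; the number at the right of each bar is the score percentile within the list. In hairpin 2 the peaks of SLC25A37, SLC25A38 and ABCB10 reach 4709, 7317 and 4486 bp into the gene. A second control peak at SLC25A38, from 3342 to 6781 bp past the start site, is not a promoter peak and is not drawn.

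SLC25A38 is the glycine carrier that feeds the first step of heme synthesis, and among the members its percentile differed most from the control in each hairpin. Its gene spans chr3:39424861-39438842 on the plus strand. Its promoter is shown because it carried the narrowest and highest-ranked peak of the gene in hairpin 1 and the widest and lowest-ranked one in hairpin 2. The 300 bases are the 250 before the start site and 50 from it onwards on GRCh37 (hg19), and capitals mark a match to the E-box letters CACGTG and one to the ETS letters CCGGAAG.
SLC25A38 promoter, chr3:39424611-39424910, plus strand: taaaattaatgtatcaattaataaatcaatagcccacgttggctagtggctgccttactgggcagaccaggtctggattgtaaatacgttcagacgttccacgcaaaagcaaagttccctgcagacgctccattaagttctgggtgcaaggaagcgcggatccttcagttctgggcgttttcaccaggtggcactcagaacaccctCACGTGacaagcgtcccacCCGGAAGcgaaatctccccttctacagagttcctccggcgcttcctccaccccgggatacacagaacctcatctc

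Around the SLC25A38 start site, the peak measured 4018, 2747 and 8198 bp. The percentiles were 69.9, 92.5 and 12.1. A transcript start of a lncRNA gene also lay within 1 kb of the ground these peaks cover, so they cannot be assigned to SLC25A38 alone. The control list held a second peak, of 3440 bp at percentile 6.68, directly downstream, and the single hairpin 2 peak spanned the ground of both control peaks. With peaks closer than 1 kb merged, the lengths were 7748, 2747 and 8198 bp, so the control and hairpin 2 were alike in extent and hairpin 1 was the short one. The percentile difference of hairpin 2 from the control was -57.8, and 0.154% of the genes compared had a lower one. With lists of equal length, or in the higher-scoring 50% of peaks, SLC25A38 had no hairpin 2 promoter peak, so the difference could not be taken. The difference of hairpin 1 from the control was 22.6, and 94.0% of the genes compared had a lower one. A 1108 bp control peak at percentile 18.9 and a 310 bp hairpin 2 peak at percentile 0.0241, both over 20 kb upstream, were each in 1 list.

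TSPO, the translocator protein, sits in the outer membrane of mitochondria and binds cholesterol and porphyrins, and its promoter was the one gained among the 8. The gene occupies chr22:43547553-43559248 on the plus strand. The control list had no peak at all between the promoter peaks of the neighbours MCAT and TTLL12. The hairpin 1 peak spanned 2364 bp at percentile 74.1, from 616 bp before the start site to 1747 bp after it, and the hairpin 2 peak 2280 bp at percentile 70.2, from 504 bp before to 1775 bp after. The 2 hairpin peaks therefore had nearly the same edges and ranks. Of the 1338 genes with a promoter peak at percentile 65 to 80 in both hairpin lists, 5 had none in the control, which is 0.374%. That range was set after the TSPO values were seen. The flanking promoters were marked in every list: MCAT at percentiles 63.8, 69.7 and 84.6 and TTLL12 at 56.1, 68.4 and 80.6.

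The TSPO promoter is shown because its peak separated the control from both hairpin libraries. Capitals mark its 6 matches to the GC box letters GGGCGG (either strand), of which neighbouring ones can overlap by a base, over the same 300-base window as above on GRCh37.
TSPO promoter, chr22:43547315-43547614, plus strand: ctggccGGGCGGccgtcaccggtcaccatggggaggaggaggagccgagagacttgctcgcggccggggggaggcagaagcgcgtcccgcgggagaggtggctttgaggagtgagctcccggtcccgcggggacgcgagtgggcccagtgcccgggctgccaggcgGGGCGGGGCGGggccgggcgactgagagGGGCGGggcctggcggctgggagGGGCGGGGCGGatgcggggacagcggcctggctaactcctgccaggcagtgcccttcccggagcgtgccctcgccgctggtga

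In this window TSPO was 77.0% G+C, above 90.2% of all promoters, and the whole gained region (chr22:43546949-43549340) was 63.5% G+C and held no GATA match. Gained promoter regions across the genome had a median of 59.6% G+C and those in every list 53.4%. The other classes missing from some list, lost ones included, were also above the latter, at 55.5% to 61.2%. The part of base composition in the TSPO result was not tested. A further peak of 1282 bp at percentile 17.7 was listed in hairpin 2 alone, past the end of TSPO and over an exon of TTLL12.

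NFS1 is the cysteine desulfurase that supplies sulfur to new clusters, and it had the highest-ranked promoter peaks of the 8 genes in the control, hairpin 1 and hairpin 2 alike. The gene, at chr20:34255974-34287277 on the minus strand, starts 53 bp from ROMO1, a mitochondrial membrane protein gene read in the opposite direction, so the shared peak cannot be assigned to one of them. The peak measured 2478, 2462 and 3316 bp at percentiles 93.3, 93.5 and 87.7. Control and hairpin 1 were thus nearly alike, and hairpin 2 was wider on both sides. The short divergent promoter is shown on the NFS1 strand, with capitals for a GC box match and 2 ETS matches, which lie near the NFS1 start and read CTTCCGG on this strand.
NFS1 promoter, chr20:34287225-34287524, minus strand: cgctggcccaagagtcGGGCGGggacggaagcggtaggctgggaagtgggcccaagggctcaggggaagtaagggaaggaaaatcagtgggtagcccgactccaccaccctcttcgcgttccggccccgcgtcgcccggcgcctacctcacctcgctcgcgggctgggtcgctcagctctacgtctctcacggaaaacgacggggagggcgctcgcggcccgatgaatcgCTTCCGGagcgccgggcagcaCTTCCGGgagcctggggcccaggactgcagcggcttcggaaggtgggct

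ISCU is the scaffold on which clusters are built. It is on the plus strand at chr12:108956358-108963144, with the start of SART3, a splicing factor gene on the other strand, 1423 bp away and under the same peak. That peak measured 5651, 4412 and 5050 bp, at percentiles 73.2, 84.2 and 78.2. ISCU was the only member whose promoter peak was narrower and higher-ranked in both hairpins than in the control. No other peak lay in its window in any list.

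GLRX5 is a mitochondrial glutaredoxin that passes clusters from the scaffold to later carriers, and its start site had no hairpin 2 peak. Its position is chr14:95999840-96011061 on the plus strand, with the canonical start at 96001387. The promoter peak was 6237 bp wide at percentile 21.8 in the control and 6534 bp wide at percentile 35.8 in hairpin 1. The control peak reached 4361 bp before the start site and the hairpin 1 peak 4285 bp past it, so the lists shared only 4124 bp of it. Hairpin 2 had instead a 4918 bp peak at percentile 14.1 over the end of the gene (chr14:96007551-96012468), which no other list had. Of the 208 genes with a promoter peak at percentile 15 to 40 in both the control and hairpin 1, 15.9% had none in hairpin 2. That range was set around the GLRX5 values, and these genes were not matched for peak width.

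A distal region upstream of GLRX5 (chr14:95989282-95991068), at the lncRNA gene SNHG10, had peaks of 1760 bp in the control and 1766 bp in hairpin 2, at percentiles 32.1 and 40.5, and none in hairpin 1. It is distal to protein-coding promoters only, as a transcript start of SNHG10 lay within 1 kb. The joined region around the GLRX5 start site also had starts of SNHG10 and of the snoRNA gene SCARNA13 within 1 kb. Its peaks cannot be assigned to GLRX5 alone. Of distal regions across the genome, 9.37% were absent only from hairpin 1. Both GLRX5 regions were searched for GATA letters, on either strand, as AGATAA, then as AGATAG, also as TGATAA and finally as TGATAG. The joined region around the start site had 28 matches, a density per kb above 97.4% of promoter regions, but 7 of them lay in the 4124 bp that the control and hairpin 1 peaks share. The upstream region had 8, a density above 93.4% of distal regions, all of them in the 1739 bp shared by its peaks. These are descriptions of sequence and no measure of binding by GATA1, the erythroid factor that recognises such letters. The 300 bases with the most matches in each shared stretch are shown with the matches in capitals, together with the GLRX5 promoter, where capitals mark 5 matches to the CCAAT box (CCAAT on either strand) and 2 to the GC box.
GLRX5 upstream region, chr14:95989507-95989806, plus strand: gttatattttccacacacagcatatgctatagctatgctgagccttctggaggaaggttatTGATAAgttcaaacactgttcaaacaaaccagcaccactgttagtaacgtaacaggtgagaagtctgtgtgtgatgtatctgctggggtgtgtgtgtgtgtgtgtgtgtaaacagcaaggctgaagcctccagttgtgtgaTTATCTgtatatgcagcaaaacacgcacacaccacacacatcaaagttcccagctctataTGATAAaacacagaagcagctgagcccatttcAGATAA
GLRX5 start-site region, chr14:95999536-95999835, plus strand: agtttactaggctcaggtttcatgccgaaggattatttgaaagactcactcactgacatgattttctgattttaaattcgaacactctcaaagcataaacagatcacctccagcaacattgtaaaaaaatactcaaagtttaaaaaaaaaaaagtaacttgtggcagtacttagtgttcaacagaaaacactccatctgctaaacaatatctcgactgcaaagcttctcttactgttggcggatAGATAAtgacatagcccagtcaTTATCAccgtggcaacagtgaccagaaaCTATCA
GLRX5 promoter, chr14:96001137-96001436, plus strand: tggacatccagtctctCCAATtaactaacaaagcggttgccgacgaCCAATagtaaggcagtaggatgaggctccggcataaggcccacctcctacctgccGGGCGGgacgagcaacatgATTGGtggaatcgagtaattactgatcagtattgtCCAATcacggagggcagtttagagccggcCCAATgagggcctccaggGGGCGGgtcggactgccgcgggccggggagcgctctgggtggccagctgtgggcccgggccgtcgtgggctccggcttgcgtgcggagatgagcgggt

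ISCA1 is a late-acting carrier that helps to make the larger type of iron-sulfur cluster. Located at chr9:88879461-88898017 on the minus strand, it had 1 peak per list in its window. The peak measured 2934, 2453 and 5560 bp, at percentiles 64.5, 80.4 and 50.4. Hairpin 2 was again the widest and the lowest-ranked. Here the extra length lay upstream of the start site, with 3918 bp before it in hairpin 2 against 1093 bp in the control and 1052 bp in hairpin 1. The downstream edges were at 1840, 1400 and 1641 bp.

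Across the members, the hairpin 2 promoter peaks were wider and the hairpin 1 peaks ranked higher than those of the control. Of the 6 genes with a promoter peak in both the control and hairpin 2, the peaks of SLC25A37, SLC25A38, ABCB10 and ISCA1 were at least 1.5-fold wider in hairpin 2 (1.52, 2.04, 1.86 and 1.90-fold), where 11.5% of all genes were. With peaks closer than 1 kb merged, or with bases counted within 5 kb of the start site, SLC25A38 left this group and 3 of 6 remained, beside 11.5% and 12.8% of all genes. None of the 6 was as much as 1.5-fold narrower, where 2.88% of all genes were. In hairpin 1 none of 7 members was 1.5-fold wider or narrower than in the control, where 8.63% and 4.66% of genes were. Any increase in width was seen for 2 of 7 in hairpin 1 (ABCB10 and GLRX5) and for 5 of 6 in hairpin 2 (all but ISCU), beside 56.6% and 66% of all genes. The median width fold of the members was 0.878 in hairpin 1 and 1.69 in hairpin 2, compared with 1.03 and 1.08 over all genes with both peaks. These medians use the peaks as deposited, with SLC25A38 at 2.04-fold in hairpin 2, and were not retaken with merged peaks. The comparisons of both hairpins share the control library.

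**Figure D3:**
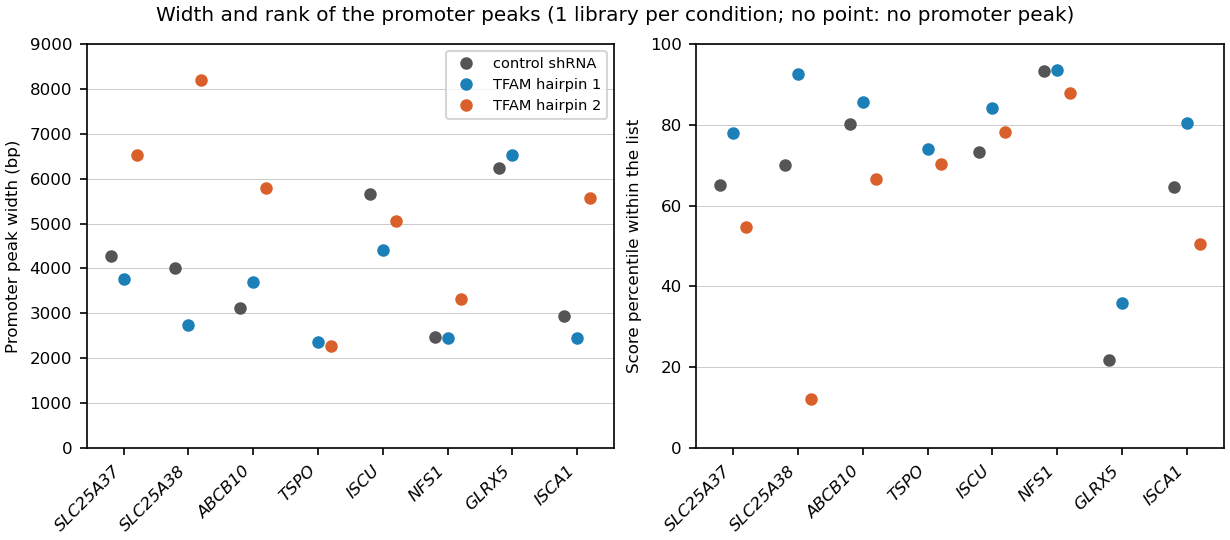
Promoter peak width in bp (left) and score percentile within the list (right) for each gene and library; a missing point means no promoter peak. The hairpin 2 peaks of SLC25A37, SLC25A38, ABCB10 and ISCA1 are 5560 to 8198 bp wide and rank below the control peaks of the same genes.

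The promoter percentile was higher in hairpin 1 than in the control for 7 of 7 members, where 56% of all genes were higher and 44% lower. The smallest such difference was that of NFS1, 0.105 points, and the largest that of SLC25A38. Differences of 10 points or more were seen for SLC25A37, SLC25A38, ISCU, GLRX5 and ISCA1, 5 of 7, beside 20.7% of all genes. In hairpin 2 the percentile was lower than in the control for 5 of 6 members, all but ISCU, where 34.2% of all genes were lower. It was lower by 10 points or more for SLC25A37, SLC25A38, ABCB10 and ISCA1, beside 8.58% of all genes. A percentile higher in hairpin 1 and lower in hairpin 2 was found for 5 of 6 members and for 11.2% of the genes with a peak in every list. Opposite differences of 5 points or more each way were found for SLC25A37, SLC25A38, ABCB10 and ISCA1, beside 6.81% of those genes. The median difference of the members was 12.8 points in hairpin 1 and -12.0 points in hairpin 2, compared with 1.19 and 3.39 points over all genes with both peaks.

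The hairpin libraries were also set directly against each other, which reuses the values above and is no separate support. For the 5 members higher in hairpin 1 and lower in hairpin 2 than the control, the direction of the percentile was fixed by those values. The differences of 10 points or more given next were fixed by them too. Of the 7 members with a promoter peak in both, all but GLRX5, the percentile was lower in hairpin 2 than in hairpin 1 for 7, where 39.7% of all genes were lower and 60.3% higher. It was lower by 10 points or more for SLC25A37, SLC25A38, ABCB10 and ISCA1, beside 11% of all genes, and higher by as much for none, beside 21.1%. The peak was wider in hairpin 2 for 6 of 7, all but TSPO, beside 61.3% of all genes. It was at least 1.5-fold wider for SLC25A37, SLC25A38, ABCB10 and ISCA1, beside 9.14%, and as much narrower for none, beside 5.06%. Whole windows were covered at least 1.5-fold more in hairpin 2 for SLC25A38, ABCB10 and ISCA1, 3 of 8, beside 17.5% of all genes, and as much less for none, beside 8.24%.

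The rank of promoter peaks was higher at greater width up to 3 to 4 kb and lower again beyond. In hairpin 2 the median percentile was 27.4 below 1 kb, 70.7 at 1 to 2 kb, 85.5 at 2 to 3 kb, 87.3 at 3 to 4 kb, 81.6 at 4 to 5 kb, 72.5 at 5 to 6 kb and 53.4 over 6 kb. Against peaks of like width in the same list (within 20%), the hairpin 2 percentiles of SLC25A37 and ABCB10 were above the control ones, at 51.8 against 39.4 and 60.5 against 55.8. Those of SLC25A38, ISCU, NFS1 and ISCA1 were below, at 14.7 against 43.7, 70.8 against 75.2, 70.1 against 86.2 and 28.9 against 33.7. Thus 4 of 6 were lower in hairpin 2 on that scale, where 41% of all genes were, and they were not the same set as before. In hairpin 1 the percentile was still higher than in the control for 7 of 7 members, beside 54% of all genes. With percentiles taken among promoter peaks alone, or with lists of equal length, this count was 6 of 7, as NFS1 changed sides. Read depth and peak calling cannot be told apart from the condition with 1 library each.

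**Figure D4:**
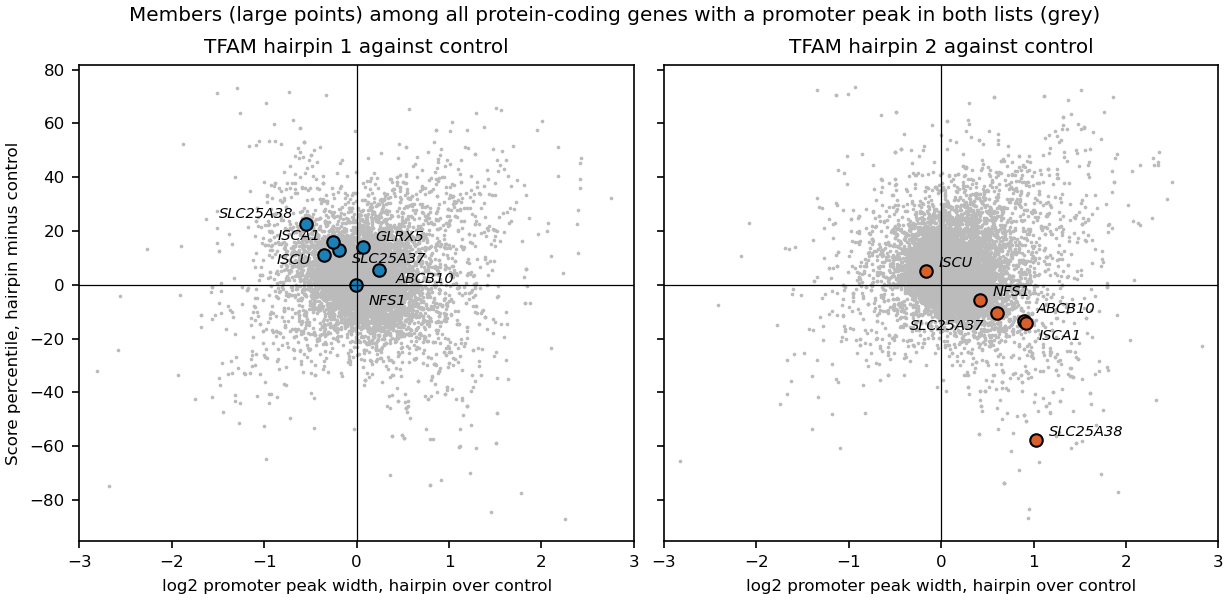
Difference of the score percentile from the control (points) against the log2 ratio of promoter peak width, for hairpin 1 (left) and hairpin 2 (right); grey dots are the 10387 and 10412 protein-coding genes with a promoter peak in both lists, large points are the members. In hairpin 1 none of the 7 members drawn lies below 0 on the vertical axis. In hairpin 2, 5 of the 6 drawn, all but ISCU, lie at greater width and lower percentile, beside 25.4% of all genes compared. TSPO has no control peak and GLRX5 no hairpin 2 peak, so neither is drawn for hairpin 2.

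In all, 19, 18 and 19 peaks lay in the 8 windows and covered 64354, 54344 and 71752 bp. No peak crossed a window edge. The covered length was thus 0.844 times that of the control in hairpin 1 and 1.11 times in hairpin 2. With lists of equal length the hairpin 2 value was 0.983, on the other side of 1. For single windows the fold passed 1.5 at SLC25A38, which was covered less in hairpin 1 (7046 bp against 12649 bp), and at TSPO and ISCA1, which were covered more in hairpin 2 (10724 bp against 6749 bp and 5560 bp against 2934 bp). Across all genes compared, 9.07% of windows were covered at least 1.5-fold less in hairpin 1 and 22.7% at least 1.5-fold more in hairpin 2, beside 16.2% covered as much more in hairpin 1 and 5.39% as much less in hairpin 2, so the 2 of 8 in hairpin 2 lie near that share.

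Overlapping peaks of the 3 lists joined into 23 regions in the windows: 8 at the promoters of the members, 6 at those of neighbours and 9 distal. All 6 neighbouring promoter regions and 6 of the 8 at members were marked in every list, as were 85.7% of promoter regions across the genome. Of the 23, 14 were in every list (49.9% of all regions in the genome), 1 gained (5.91%), 1 lost (7.05%), 1 absent only from hairpin 1 (7.21%), 2 absent only from hairpin 2 (4.29%), 1 in hairpin 1 alone (9.71%) and 3 in hairpin 2 alone (16%). Of the 9 distal regions, 2 were marked in every list, both of them at SLC25A37, beside 34.1% of distal regions across the genome, and 3 in hairpin 2 alone, beside 21.6%. Distal peaks numbered 6 in the control, 4 in hairpin 1 and 6 in hairpin 2. Their percentiles had medians of 25.5, 24.7 and 29.1, far below those of the members' promoter peaks, at 69.9, 82.3 and 66.7. ABCB10, ISCU, NFS1 and ISCA1 had no distal peak in any list.

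The start-site windows of the members were G+C-rich, with a median of 70.8% against 63.3% over all promoters. SLC25A38 was the lowest at 51.3% and ABCB10 the highest at 77.3%. The GC box letters GGGCGG were found in 6 of 8 members and 60.9% of all promoters. CCAAT was found in SLC25A37, GLRX5 and ISCA1 and in 35.9% of promoters. The ETS letters CCGGAAG were found in SLC25A38 and NFS1 and in 14.0% of promoters, and the CRE letters TGACGTCA in SLC25A37 and ISCU and in 2.68%. CACGTG was found in SLC25A38 alone and in 8.74% of promoters, and the YY1 motif in ISCU alone and in 1.42%. The GATA letters, the NRF1 motif, the NF-E2 and AP-1 letters TGANTCA and the TATA letters TATAAA were in none of the 8 windows and in 18.5%, 1.69%, 5.42% and 9.81% of promoters. Each search covered both strands, and the absence of a match says only that these letters are not in the window.

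The other genes of the pathways had lower median width folds in hairpin 2 than the members, a difference that was not tested. The members' median counts SLC25A38 at 2.04-fold. With merged peaks that gene measured 7748 bp in the control and 8198 bp in hairpin 2. The medians were not retaken with merged peaks, so how far the difference depends on SLC25A38 is not known. Among 9 heme synthesis enzymes, 5 had a promoter peak in every list, beside 50.3% of all genes. PPOX, of a late step, had one in the control and hairpin 1 but none in hairpin 2, as at GLRX5. ALAS2, the erythroid first enzyme, had none in hairpin 1, with 2506 bp in the control and 6417 bp in hairpin 2. FECH, which inserts the iron, had a peak in hairpin 1 alone, of 2480 bp at percentile 47.2. Among 13 other genes of mitochondrial iron, heme and porphyrin transport, 10 were marked in every list and FTMT and FLVCR2 in none. HEBP1, a heme-binding protein, was gained, but with narrow and low-ranked peaks of 496 bp at percentile 29.7 in hairpin 1 and 745 bp at percentile 26.1 in hairpin 2.

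Among 14 other genes of mitochondrial iron-sulfur assembly, 12 were marked in every list, beside 50.3% of all genes. FDXR, the reductase that supplies electrons to the assembly complex, had none in hairpin 1, and BOLA1 had none in any list. All 10 genes of cytosolic iron-sulfur assembly were marked in every list, led by CIAO2A, with 5312, 5898 and 5600 bp within 5 kb of its start site, and NDOR1, with 3969, 3499 and 5247 bp. The promoter peak was wider in hairpin 2 than in the control for 5 of 6 heme synthesis genes, 9 of 10 transport genes, 6 of 13 mitochondrial iron-sulfur genes and 8 of 10 cytosolic ones, beside 5 of 6 members and 66% of all genes. The median width folds of these pathway lists were 1.38, 1.19, 0.956 and 1.14. Single genes in them had peaks at least 1.5-fold wider in hairpin 2 than in the control, as did 11.5% of all genes. These were ALAS2 and CPOX of 6 heme synthesis genes compared, ABCB6 of 10 transport genes, FDX2 of 13 mitochondrial and NDOR1 of 10 cytosolic ones. By bases within 5 kb of the start site, NDOR1 fell short of that fold, at 3969 bp in the control and 5247 bp in hairpin 2. The promoter peaks of ALAS2, FDX2 and NDOR1 also ranked lower, as at the members, and those of CPOX and ABCB6 higher. The percentile was higher in hairpin 1 than in the control for 3 of 7, 6 of 10, 5 of 12 and 2 of 10 genes of these pathway lists, in the same order. The members had 7 of 7, NFS1 by only 0.105 points, and 56% of all genes were higher.

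**Figure D5:**
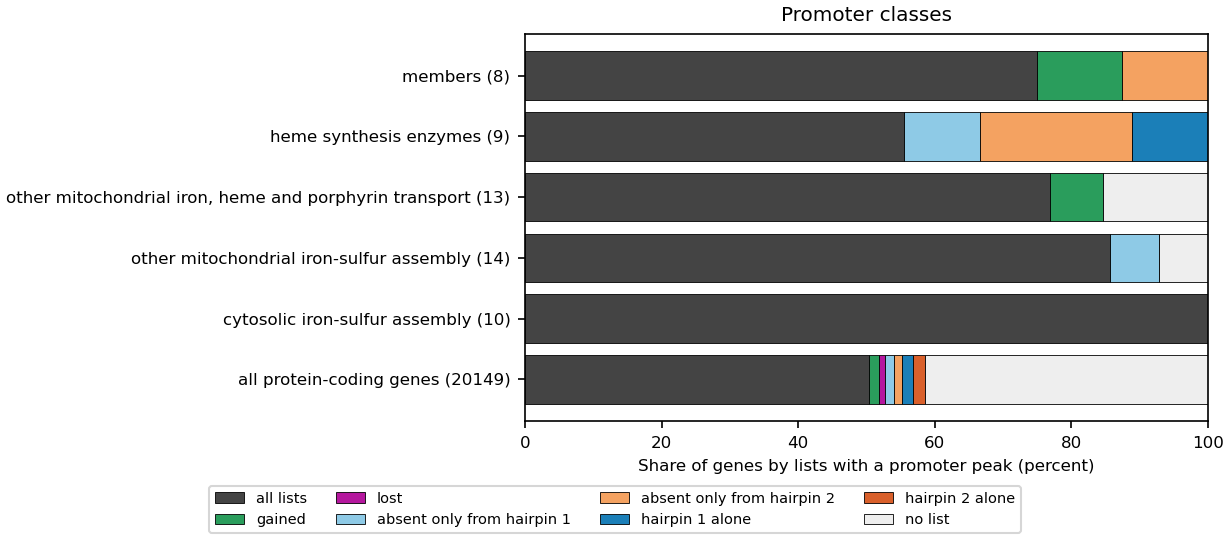
Share of genes in percent by the lists in which they have a promoter peak, for the 8 members, for the 4 other lists of the pathways and for all 20149 protein-coding genes, with the number of genes in brackets. TSPO is the gained member and GLRX5 the one absent only from hairpin 2.

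Within the 46 genes of these 4 lists, likeness was measured as the largest difference of promoter percentile over the 3 lists, a missing peak counting as 0. NFS1 was most like SLC25A28, which encodes the other mitoferrin (largest difference 3.19 points), and ISCU most like SLC25A39 (4.36 points). SLC25A37 was most like ISCA2 (9.43 points) and ISCA1 most like FDX2 (13.1 points). The matches of GLRX5, SLC25A38 and TSPO were less close: 21.8 points separated GLRX5 from FECH, 35.4 points SLC25A38 from PPOX and 44.4 points TSPO from HEBP1.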

How the data were processed

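H3K27ac ChIP-seq peak lists of 3 K562 libraries were used, 1 per condition, grouped by the sample titles. Per the labels' protocols, reads that aligned to 1 place in hg19 were kept. The submitters' processing notes name Bowtie 0.12.7 and Picard and give no role for either. The deposited score of each peak is the authors' value from a caller that wrote a MACS prefix, and here it served to order the peaks of one list. The sources used here give neither the caller's version nor its settings, and the input library was not analysed here.

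Peak starts were read as BED and are printed 1-based. Genes came from GENCODE release 44 on GRCh37, with 1 canonical start site per gene (19868 of 20149 genes, otherwise the 5' end). A promoter peak had at least 1 bp within 1 kb of the start site, and where several did, the highest-scoring one was used. Windows were gene bodies with 25 kb on each side. Overlapping peaks of the lists were joined into regions. Sequences were read from the GRCh37 genome. A fold of 1.5 was called a difference. The code classed promoters as made on simulated lists. Alternatives were promoters of 2.5 kb on each side, all basic transcript starts, lists cut to one length, the higher-scoring 50% of peaks, windows of 10 kb, merged peaks, peak centres and percentiles among promoter peaks. Percentiles among peaks of like width and the measures of widening were added after seeing the data.

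All 8 members are named, as are neighbours with a promoter peak in a window, the genes of each pathway list marked in some lists but not in all (or, where there were none, the 2 with the most covered bases in the control) and the most like gene of each member. Some results that this rule covers are not reported here. FTMT, FLVCR2 and BOLA1 were named after their values were seen. The members and gene lists were chosen with earlier results of these data known. Python 3.11.15, numpy 2.4.6, pandas 2.3.3 and matplotlib 3.10.9 were used.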

Additional observations from a re-analysis of the deposited data

Results flagged for a closer look

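The promoter percentiles of 4 members differed from the control in opposite directions in the hairpin libraries, by 5 points or more each way, a size set after the values were seen. Of all genes with a promoter peak in every list, 6.81% differed so. For SLC25A37 the differences were 12.8 points in hairpin 1 and -10.5 points in hairpin 2. For SLC25A38 they were 22.6 and -57.8 points, for ABCB10 5.39 and -13.4 points, and for ISCA1 15.8 and -14.1 points. Against peaks of like width, the hairpin 2 differences were 12.3 points for SLC25A37, -29.0 for SLC25A38, 4.76 for ABCB10 and -4.73 for ISCA1. On that scale SLC25A37 and ABCB10 were thus higher than the control in both hairpins. With lists of equal length, SLC25A38 had no hairpin 2 promoter peak. With 1 library per hairpin and a shared control, the difference between the hairpins was not tested.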

How the results depend on the processing

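The class of each promoter was counted in the same way with promoters of 2.5 kb on each side and with all basic transcript starts. In the higher-scoring 50% of peaks, 1 member (GLRX5) had no promoter peak in any list, the covered length in the control was 41358 bp, and the distal peaks numbered 1 in the control, 0 in hairpin 1 and 2 in hairpin 2; SLC25A38 was then the member absent only from hairpin 2. With equal list lengths, 2 members were absent only from hairpin 2, since SLC25A38 joined GLRX5. The median percentile of the members was 40.7 in the control and 28.2 in hairpin 2 among promoter peaks alone, and 43.7 in the control among peaks of like width. The fold of covered length in hairpin 2 was 0.983 with equal list lengths and 1.23 to 1.30 under its other alternatives. The other counts, lengths and folds stayed within 1.5 times their values under the alternatives run. The cause of these moves was not tested. No paired analysis was possible because each condition had 1 library. Unknown read depths limit every statement on a missing peak.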

Other observations

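Of the 6 neighbouring promoter peaks in the windows, 5 ranked higher in both hairpins than in the control, those of MCAT and TTLL12 among them, and RPSA ranked lower in both. Among all genes with a peak in the lists compared, 56% ranked higher in hairpin 1 and 65.8% in hairpin 2. The share higher in both was not counted. RPSA, a ribosomal protein gene downstream of SLC25A38, ranked at percentiles 90.8, 65.3 and 81.7 in the control, hairpin 1 and hairpin 2. NUP133, a nuclear pore gene next to ABCB10, ranked at 87.8, 96.7 and 94.9, and its peak measured 3222, 2214 and 3213 bp, so it was not wider in hairpin 2. The peak shared by CPNE1 and RBM12 near NFS1 ranked at 97.2, 97.7 and 98.5. SYNE3, upstream of GLRX5, had peaks of 632, 1104 and 1533 bp at percentiles 6.08, 45.9 and 33.2, and so was wider and higher-ranked in both hairpins than in the control.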
